A study of Mus musculus with 4 samples.

Results

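Noncoding RNAs of the nucleus and nucleolus, 10 in all, were followed through 4 libraries of mouse lymphatic endothelial cells. They were chosen by symbol from the 23337 genes in the count tables, and all 10 were found: Rn45s, Malat1, Neat1, Rmrp, Rpph1, Gas5, Snhg1, Snhg8, Snhg12 and Terc. The choice rested on how well such RNAs are counted in total-RNA libraries, so a high level is not a finding here and levels are given as a description. At embryonic day 14.5, LYVE1 and VECAD positive, CD45 negative cells were sorted out of the dorso-anterior region, and each genotype was 1 whole litter pooled. The mutant library after culture and the wild type library after culture came from cells kept for 7 days on a feeder layer of OP9, a mouse stromal line, with FLT3L, IL3 and SCF at 100 ng/ml each, then sorted again for LYVE1 and VECAD (no CD45 exclusion is stated for that sort). The mutant library before culture and the wild type library before culture came from the other portions of the same sorts, lysed directly. Mutant cells were homozygous for a deletion whose position the labels do not give; the series title speaks of an enhancer bound by GATA2. Each of the 4 groups is 1 library from 1 litter pool, so a difference between genotypes has no replicate check, cannot be told apart from a difference between litters, and carries no p-value.

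Ribosomal RNA is transcribed in the nucleolus by RNA polymerase I as a long precursor, which Rn45s represents, and small nucleolar RNAs guide its modification and cleavage. Many of those guides are cut out of the introns of host genes such as Gas5, Snhg1, Snhg8 and Snhg12, and the spliced exons of several of these hosts encode no protein and are degraded by nonsense-mediated decay. Rmrp and Rpph1, made by RNA polymerase III, are the RNA cores of the related enzymes RNase MRP and RNase P, which act on the ribosomal precursor and on the 5′ ends of transfer RNAs. Malat1 collects in nuclear speckles beside splicing factors, Neat1 is the scaffold of paraspeckles, and Terc is the template RNA of telomerase.

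The levels of the RNase RNAs differed between all 4 libraries, and their sequences are printed because both are short, structured and rich in G and C (64.2% in Rmrp and 67.1% in Rpph1). In the GENCODE vM21 annotation on GRCm38, the same assembly as mm10, Rmrp lies on the minus strand at chr4:43492788-43493058 (271 nt) and Rpph1 on the minus strand at chr14:50807449-50807767 (319 nt). Both are annotated as ribozyme genes without introns, and a lincRNA entry of 281 nt with the name Rmrp overlaps the ribozyme, so their reads cannot be told apart. The sequences run 5′ to 3′ in DNA letters from GENCODE vM21, with Rpph1 shown to base 300 (chr14:50807468-50807767), and capitals mark the longest stretches that both share, 9 nt each.
Rmrp: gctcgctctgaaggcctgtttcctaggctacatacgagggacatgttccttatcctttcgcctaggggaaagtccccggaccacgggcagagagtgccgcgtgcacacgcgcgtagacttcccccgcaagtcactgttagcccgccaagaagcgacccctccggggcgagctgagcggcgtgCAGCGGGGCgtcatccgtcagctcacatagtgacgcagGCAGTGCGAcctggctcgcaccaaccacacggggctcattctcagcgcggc
Rpph1: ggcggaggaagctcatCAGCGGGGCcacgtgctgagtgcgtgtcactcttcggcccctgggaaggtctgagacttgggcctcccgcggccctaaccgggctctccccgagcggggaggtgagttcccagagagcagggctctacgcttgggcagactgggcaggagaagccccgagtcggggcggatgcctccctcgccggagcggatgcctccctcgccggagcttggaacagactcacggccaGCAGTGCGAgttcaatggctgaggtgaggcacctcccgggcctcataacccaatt
One shared stretch spans bases 183 to 191 of Rmrp and 17 to 25 of Rpph1, and the other bases 221 to 229 of Rmrp and 246 to 254 of Rpph1. Rpph1 also repeats a 23-nt stretch of its own, from base 182 and again from base 203.

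Gene counts of the mutant and wild type libraries totalled 3931557 and 1694669 after culture, against 7943587 and 3987150 before culture. Levels are CPM, the share of gene counts with libraries scaled by TMM (trimmed means of log ratios), and intervals in parentheses are 95% intervals for counting error only. A fold is a ratio of such levels, and it was called where its whole interval lay beyond 2-fold with at least 20 counts in 1 of the libraries compared. Olfactory and vomeronasal receptor genes, normally silent here, serve for a background rate. They held 1.61 and 0.538 counts per kilobase (kb) of coding sequence in the mutant and wild type libraries after culture, against 8.36 and 6.65 before culture. Counts in their noncoding exons were included but not that length, so the rate may be too high, by an amount that was not tested. Lymphatic markers summed to 6324 and 7517 CPM in the mutant and wild type libraries after culture, against 7177 and 7590 CPM before it, with 6 to 7 of 8 counted. That sum was held up by Lyve1, a marker of the sort, at 2742 and 3523 CPM after culture against 890 and 1072 before it, and by Flt4. Of 7 lymphatic markers measured, 4 were called lower after culture in each genotype, with median log2 folds of -1.82 in mutant and -1.29 in wild type cells. Prox1, the regulator of lymphatic identity, had 137 and 207 CPM after culture against 487 and 507 before it, Reln 21.5 and 20.4 against 1012 and 1091, and Pdpn 8 and 0 counts against 915 and 435. Pan-endothelial markers summed to 10629 and 11727 CPM in the mutant and wild type libraries after culture, against 4025 and 3794 CPM before it. Stromal markers summed to 1518 and 1770 CPM after culture, against 5255 and 3289 CPM before it, with all 10 markers counted except 1 at 0 in cultured wild type cells. Collagen genes set that sum, and 7 stromal markers were called lower in mutant and 6 in wild type cells, but Cxcl12 had 573 and 586 CPM after culture against 41.1 and 31.3 before it. Adipoq, an adipocyte gene, had 12.9 CPM in the mutant and 54.6 CPM in the wild type library after culture, against 5.32 and 5.42 CPM before it. Leukocyte markers summed to 46.1 and 29.1 CPM after culture, against 86.2 and 95.3 CPM before it. Erythroid markers summed to 23.6 and 13.1 CPM after culture against 31.8 and 35.3 CPM before it, with 4 of 9 at 0 throughout, and muscle markers to 175 and 131 CPM against 447 and 428 CPM. The part of these other cells in the results below was not tested, and fewer cells of a type cannot be told apart from less RNA per cell.

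The 10 RNAs took 3.10% and 3.86% of gene counts in the mutant and wild type libraries after culture, against 3.26% and 3.19% in the mutant and wild type libraries before culture. Rn45s and Malat1 ranked first and second by count among all genes in each of the 4 libraries, and held 97.6% to 98.7% of the counts of the 10. The remaining RNAs were far less abundant, and Terc, with 0 to 10 counts, does not bear the name abundant in these data. Per kb of the longest annotated transcript without retained introns, Malat1 led with 2111 and 2432 CPM per kb in the mutant and wild type libraries after culture, and 797 and 790 before culture. Rpph1 followed with 1448 and 2276 CPM per kb after culture and 682 and 378 before it. The intervals of Malat1 and Rpph1 overlapped only in the wild type library after culture (2401 to 2464 and 2137 to 2422 CPM per kb). Rmrp came next at 308 and 471 CPM per kb in the mutant and wild type libraries after culture and 215 in the mutant library before it. In the wild type library before culture Rmrp had 101 CPM per kb, below Gas5 at 170. Snhg1 stood at 43.1 to 52.5 CPM per kb, above Snhg8 at 11.0 to 17.9 and Snhg12 at 7.31 to 11.4. The intervals of Snhg8 and Snhg12 overlapped in 3 of the libraries and not in the wild type library before culture. Rn45s has no length in the annotations used here and was not ranked per kb.

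**Figure D1:**
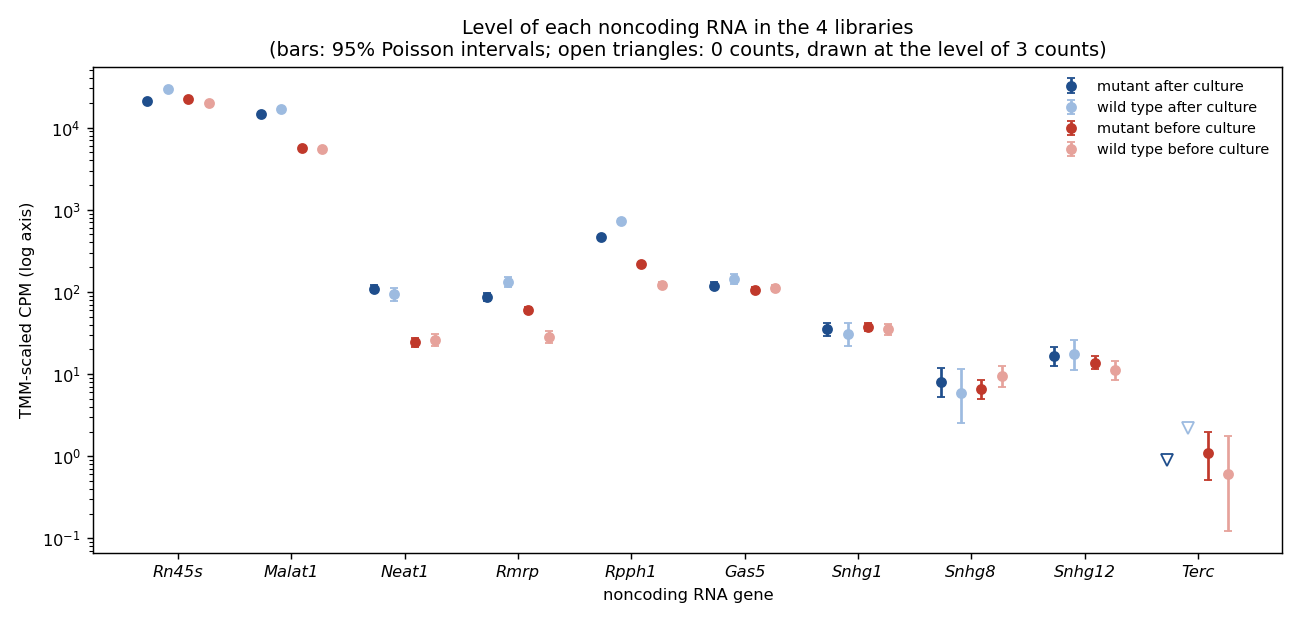
Level of each noncoding RNA in TMM-scaled CPM on a log axis, with the mutant and wild type libraries after culture followed by the mutant and wild type libraries before culture; bars are 95% Poisson intervals and open triangles mark 0 counts. Malat1, Neat1, Rmrp and Rpph1 sat higher in both libraries after culture than in both before it, whereas Gas5 ran from 107 to 143 CPM.

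Among the most abundant RNAs, Malat1 was called higher after culture in both genotypes and Rn45s in neither. Malat1 had 14744 CPM in the mutant library (14614 to 14875) and 16984 CPM in the wild type library (16766 to 17203) after culture. Before culture it had 5568 CPM in the mutant library (5520 to 5616) and 5519 CPM in the wild type library (5454 to 5585). Both cultured libraries thus lay above both uncultured ones, with after-to-before folds of 2.65 in mutant cells (2.62 to 2.68) and 3.08 in wild type cells (3.02 to 3.13), both called higher. Of all genes measured in mutant cells, 5.19% were called higher and 3.62% lower after culture. In wild type cells 8.17% were called higher and 5.77% lower. With gene count totals as the only scaling, the Malat1 folds were 1.94 in mutant and 1.997 in wild type cells, short of the call. Duplicate pairs had been removed from all counts, and what that did to counts as high as those of Malat1 and Rn45s was not tested. Malat1 is annotated at chr19:5795690-5802672 (minus strand), with Neat1 on its 5′ side.

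Rn45s, the row named for the ribosomal precursor, had culture folds on either side of 1 in mutant and wild type cells. Rn45s stood at 20924 CPM in the mutant library (20769 to 21080) and 29446 CPM in the wild type library (29160 to 29734) after culture. Before culture it stood at 22064 CPM in the mutant library (21968 to 22160) and 19688 CPM in the wild type library (19565 to 19812). The wild type library after culture was the highest of the 4, and no intervals overlapped. The culture fold was 0.948 in mutant cells (0.940 to 0.957) and 1.496 in wild type cells (1.48 to 1.51), neither of them called. By gene count totals the wild type fold was 0.971, below 1, so its direction depends on the scaling. Ribosomal DNA is present in many near-identical copies, so the value of this row depends on how pairs shared by the copies were assigned, which was not tested. Whether ribosomal sequences were depleted from these libraries is not given in the sources used here. Whether the counted pairs came from the precursor or from mature ribosomal RNA was not tested either, so the folds are those of the row.

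Ratios within a library do not depend on the scaling. The ratio of Malat1 to Rn45s counts was 0.705 in the mutant library (0.697 to 0.713) and 0.577 in the wild type library (0.568 to 0.586) after culture. Before culture it was 0.252 in the mutant library (0.2499 to 0.255) and 0.280 in the wild type library (0.277 to 0.284). Both cultured libraries had the higher ratio, and the mutant library held the higher ratio after culture and the lower before it. The ratio shows only that both RNAs changed unequally, not which of them moved.

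**Figure D2:**
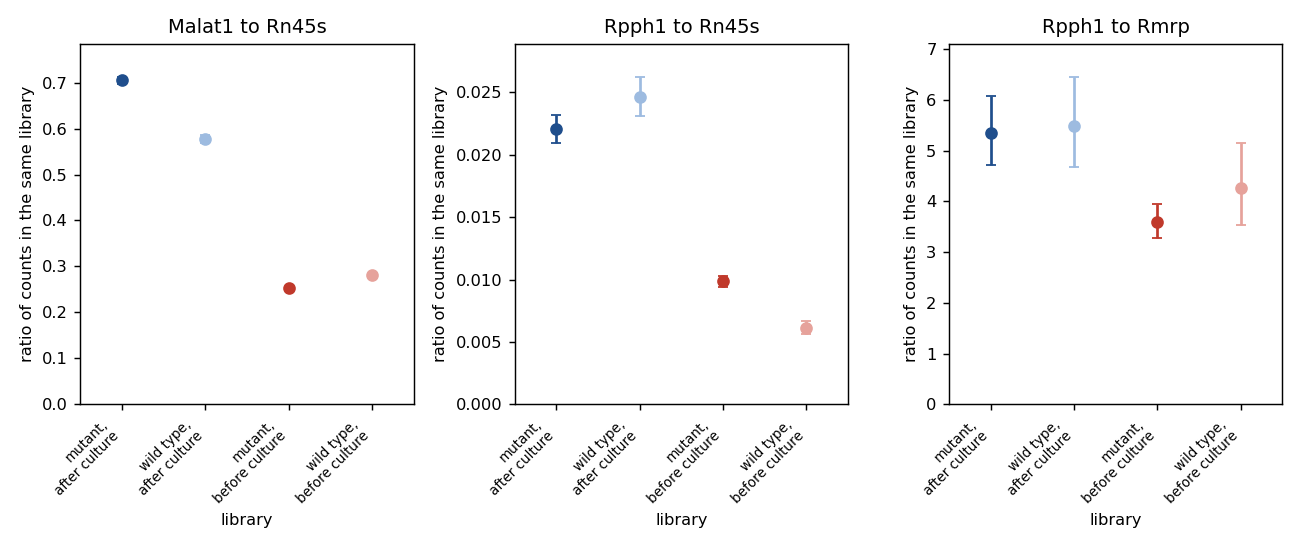
Ratios of counts within the same library for Malat1 to Rn45s, Rpph1 to Rn45s and Rpph1 to Rmrp, with the cultured libraries left of the uncultured ones and bars for 95% Clopper-Pearson intervals. Malat1 to Rn45s was 0.577 to 0.705 after culture against 0.252 to 0.280 before it, while Rpph1 to Rmrp ranged from 3.60 to 5.48.

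Neat1, the paraspeckle RNA next to Malat1 (chromosome 19, minus strand, 5824708 to 5845478), was higher after culture, from few counts. It had 367 counts or 110 CPM in the mutant library (98.8 to 122) and 128 counts or 93.1 CPM in the wild type library (77.7 to 111) after culture. Before culture it had 224 counts or 24.3 CPM in the mutant library (21.2 to 27.7) and 130 counts or 26.1 CPM in the wild type library (21.8 to 31.0). The culture folds of 4.51 in mutant cells (3.81 to 5.35) and 3.57 in wild type cells (2.77 to 4.59) were called higher. Frmd8, the coding gene next to Neat1, had folds of 2.23 in mutant cells (1.92 to 2.59) and 2.82 in wild type cells (2.21 to 3.59), of which the wild type fold was called. Whether the Neat1 level before culture exceeded background depends on the transcript counted: GENCODE gives transcripts of 20771 and 3004 nt, and the tables do not say which was used. Over 20771 nt, the background rate alone amounts to 174 counts in the mutant and 138 counts in the wild type library before culture, and to 33.5 and 11.2 counts after culture. Over 3004 nt it amounts to 25.1 and 19.98 counts before culture. With background subtracted over 20771 nt, the fold in mutant cells was 15.8 (11.7 to 21.8), and wild type cells had no fold because their count before culture became 0. Over 3004 nt, an alternative chosen after seeing the data, the folds were 4.33 in mutant cells and 3.03 in wild type cells. By gene count totals they were 3.31 (2.80 to 3.93) and 2.32 (1.80 to 2.98), of which the wild type fold was not called.

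**Figure D3:**
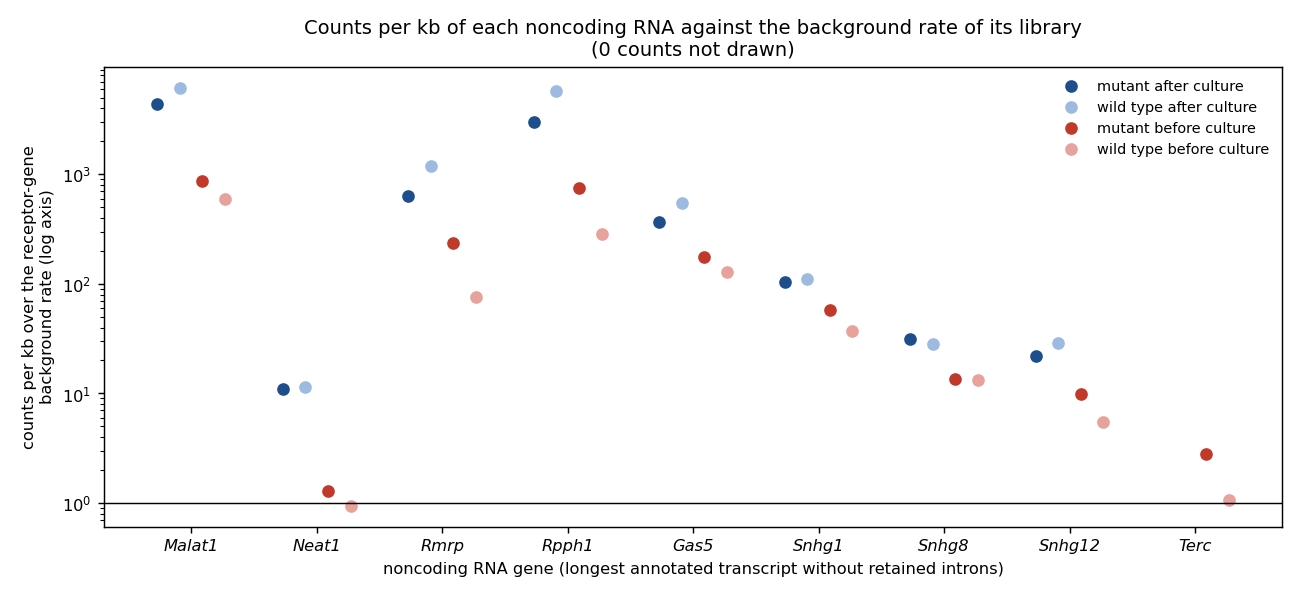
Counts per kb of 9 noncoding RNAs as a multiple of the receptor-gene background rate of the same library, on a log axis with a line at the background rate. Neat1 over 20771 nt stood at 10.9 and 11.4 times the rate after culture against 1.29 and 0.941 times before it in the mutant and wild type libraries, and Terc at 2.83 and 1.07 times before culture.

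The RNase RNAs Rpph1 and Rmrp had their 4 levels in the same order. Rpph1 had 1545 counts or 462 CPM in the mutant library (439 to 486) and 998 counts or 726 CPM in the wild type library (682 to 773) after culture. Before culture it had 2003 counts or 217 CPM in the mutant library (208 to 227) and 601 counts or 121 CPM in the wild type library (111 to 131). No intervals overlapped, with the wild type library highest after culture and lowest before it. Rmrp had 289 counts or 86.4 CPM in the mutant library (76.7 to 97.0) and 182 counts or 132 CPM in the wild type library (114 to 153) after culture. Before culture Rmrp had 557 counts or 60.5 CPM in the mutant library (55.5 to 65.7) and 141 counts or 28.3 CPM in the wild type library (23.8 to 33.4). Its 4 levels followed the order of Rpph1, again without overlap. The share of read pairs left unaligned had that order too, at 56.2% and 67.6% for the mutant and wild type libraries after culture, against 34.1% and 21.4% before it. Pairs aligned outside genes ran the other way, with 30.3% and 19.996% after culture against 53.6% and 66.5% before it. The part of these shares in the result was not tested, nor was that of the removal of duplicate pairs, in RNAs as short as these.

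Culture folds of both RNase RNAs were larger in wild type cells. For Rpph1 the after-to-before fold was 2.13 in mutant cells (1.99 to 2.27), not called, and 6.02 in wild type cells (5.43 to 6.67), called higher. For Rmrp it was 1.43 in mutant cells (1.24 to 1.65) and 4.68 in wild type cells (3.73 to 5.87), of which the wild type fold was called. By gene count totals the Rpph1 folds were 1.56 in mutant and 3.91 in wild type cells, and the Rmrp folds 1.05 (0.906 to 1.21) and 3.04, so the mutant Rmrp interval then held 1. With median-of-ratios scaling the Rpph1 fold in mutant cells was 2.16, which was called. The ratio of Rpph1 to Rmrp counts was 5.35 in the mutant library (4.71 to 6.08) and 5.48 in the wild type library (4.68 to 6.46) after culture, against 3.60 (3.27 to 3.96) and 4.26 (3.54 to 5.16) before it. Of the genes for RNase P and MRP proteins, 9 could be measured in mutant cells and 8 in wild type cells, and none was called after culture. Pop4, a shared subunit, had culture folds of 1.13 in mutant cells (0.906 to 1.40) and 2.002 in wild type cells (1.43 to 2.79). Pop1, the largest subunit, had folds of 1.95 (1.56 to 2.42) and 1.29 (0.882 to 1.86).

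None of the 4 snoRNA host genes was called in any comparison. Of all genes, 0.317% were called between genotypes after culture and 0.0634% before it. By culture, 8.81% were called in mutant and 13.9% in wild type cells. At such shares, no call among 4 genes is not a result about the hosts. Gas5, on the plus strand of chromosome 1 from 161034422 to 161038539, had 398 counts or 119 CPM in the mutant library (108 to 131) and 197 counts or 143 CPM in the wild type library (124 to 165) after culture. Before culture it had 984 counts or 107 CPM in the mutant library (100 to 114) and 563 counts or 113 CPM in the wild type library (104 to 123). The wild type library after culture was the highest, and its interval overlapped that of the mutant library after culture. The Gas5 culture fold was 1.11 in mutant cells (0.989 to 1.25) and 1.27 in wild type cells (1.07 to 1.49), and by gene count totals it was 0.817 and 0.823, so its direction depends on the scaling. Snhg1 (chromosome 19, 8723475 to 8726443, plus strand) had 118 and 42 counts, or 35.3 and 30.6 CPM, in the mutant and wild type libraries after culture. Before culture Snhg1 had 343 and 174 counts, or 37.2 and 34.9 CPM, in the mutant and wild type libraries. All 4 Snhg1 intervals overlapped.

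Snhg8 and Snhg12 rested on fewer counts. Snhg8 (chromosome 3, 123507552 to 123508404, minus strand) had 27 and 8 counts, or 8.07 and 5.82 CPM, in the mutant and wild type libraries after culture, against 60 and 47 counts, or 6.51 and 9.43 CPM, before it. Snhg12 (chromosome 4, 132308623 to 132311024, plus strand) had 55 and 24 counts, or 16.4 and 17.5 CPM, after culture, against 127 and 56 counts, or 13.8 and 11.2 CPM, before it. With TMM, neither had a culture fold whose interval left 1 in either genotype. In mutant cells the folds were 1.24 for Snhg8 and 1.19 for Snhg12, or 0.909 and 0.875 by gene count totals. In wild type cells the Snhg8 fold was 0.617 (0.252 to 1.32), but 0.400 (0.163 to 0.855) by gene count totals and 0.453 (0.185 to 0.967) by upper-quartile scaling, where the interval lay below 1. The Snhg12 fold there was 1.55 (0.921 to 2.55), or 1.01 by gene count totals. The guest snoRNAs of these hosts, of which 8 of 24 listed were found, had 0 to 18 counts each, and none reached 20 counts. Of 14 other host genes found, Snhg11 alone was called, lower after culture in wild type cells with 2 counts against 61 (fold 0.119, 0.0141 to 0.448). Ncl, the host with most counts, which encodes nucleolin, had culture folds of 1.01 in mutant cells (0.983 to 1.05) and 1.07 in wild type cells (1.02 to 1.13). Rpl13a, a ribosomal protein gene, had 1.40 (1.33 to 1.48) and 1.99 (1.84 to 2.15). Next to Snhg1, Slc3a2, which encodes an amino acid transporter subunit, had a fold of 1.88 in mutant cells (1.64 to 2.15) and was called higher at 3.41 in wild type cells (2.79 to 4.18).

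The start sites of the hosts are shown because host genes of this kind often begin transcription in a run of pyrimidines, a feature shared with ribosomal protein genes. Windows run 5′ to 3′ on the gene's strand from 30 bases before the RefSeq start to its first 30 bases (GRCm38.p6; plus strand for Gas5, Snhg12 and Snhg1, minus for Snhg8), and capitals mark a C followed by at least 4 pyrimidines that begins within 5 bases of the start.
Gas5, chr1:161035136-161035195: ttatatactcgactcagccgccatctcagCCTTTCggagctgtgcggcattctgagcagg
Snhg8, chr3:123508307-123508366: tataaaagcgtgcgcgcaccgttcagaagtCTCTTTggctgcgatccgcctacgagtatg
Snhg12, chr4:132308648-132308707: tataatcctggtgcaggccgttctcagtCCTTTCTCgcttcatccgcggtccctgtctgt
Snhg1, chr19:8723457-8723516: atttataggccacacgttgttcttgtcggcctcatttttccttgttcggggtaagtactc
The tract was found at the second listed Gas5 start and at the Snhg8 and Snhg12 starts, but not in that position for Snhg1 or at the other Gas5 start, and 18.3% of 32851 promoters have one. In windows of 250 bases before to 50 after the start, searched on both strands, TATAA was in 4 of 6 member promoters (Gas5, Snhg1, Snhg8 and Snhg12) and in 24.9% of all promoters. GGGCGG was in 4 of 6 (35.7% of all), ACGTG in 2 (19.6%), CCAAT in 1 (37.4%) and TTTGCAT in 0 (4.63%). The table of promoters held no entry for Rn45s, Neat1, Rmrp, Rpph1 or Terc, and the Malat1 promoter held ACGTG alone of these motifs, none of which contains another. A match of letters is a description and not a site.

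Terc, the telomerase RNA (chromosome 3, 96414437 to 96414859, minus strand), was counted 0 times in both libraries after culture, where 3 counts would be 0.897 CPM in the mutant and 2.18 CPM in the wild type library. Before culture the mutant library had 10 counts and the wild type library 3, where the background rate over its 423 nt gives 3.53 and 2.81 counts. Its mutant-to-wild type ratio before culture was 1.80 (0.464 to 10.2). Of 16 telomerase and telomere genes listed, the 1 called was Tpp1, higher at 4.65 in mutant cells (4.15 to 5.22) and 5.95 in wild type cells (5.09 to 6.98). That symbol belongs to a lysosomal peptidase and not to the telomere protein of the same abbreviation, whose gene is Acd. Tgs1, an enzyme that modifies the cap of Terc, had folds of 1.23 (1.08 to 1.40) and 1.30 (1.07 to 1.58).

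**Figure D4:**
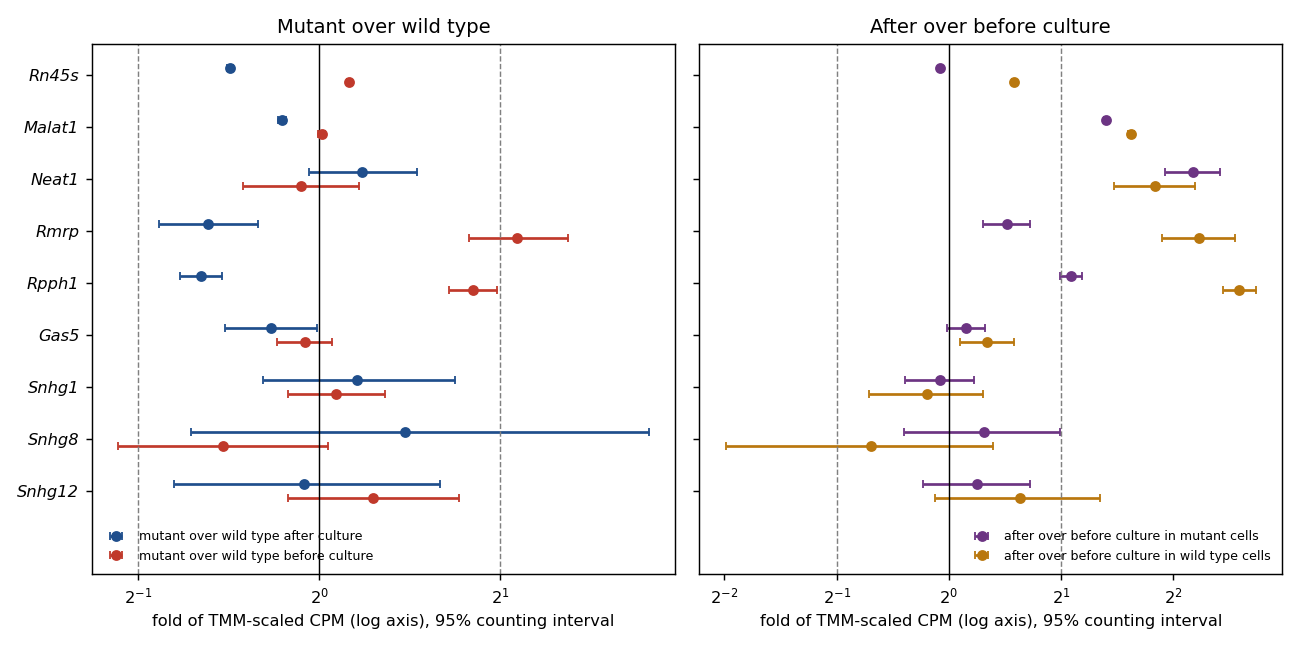
Folds of TMM-scaled CPM for 9 noncoding RNAs on log axes with 95% counting intervals, mutant over wild type on the left and after over before culture on the right; dashed lines mark 2-fold. Rmrp and Rpph1 lay at 0.653 and 0.636 after culture against 2.14 and 1.80 before it for mutant over wild type. The 4 called folds in wild type cells were those of Malat1, Neat1, Rmrp and Rpph1.

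After culture, the genotypes are compared to ask whether mutant cells differ once grown under blood-forming conditions. None of 9 measured members was called, against 0.317% of 12309 genes, 0.244% higher and 0.0731% lower. The interval lay below 1 for Rn45s at 0.711 (0.702 to 0.719), Rpph1 at 0.636 (0.587 to 0.690), Rmrp at 0.653 (0.540 to 0.790), Malat1 at 0.868 (0.855 to 0.882) and Gas5 at 0.830 (0.698 to 0.990), and above 1 for none. That is 5 of 9 with TMM, where 21.8% of all genes had an interval on either side of 1. Such intervals narrow with more counts, and Rn45s and Malat1 had the most counts of all genes. The share over all genes, which includes genes near 20 counts, is thus no like-for-like measure. By gene count totals the Gas5 interval held 1 (0.732 to 1.04) and the Neat1 interval lay above 1 (1.01 to 1.52). The median log2 fold of the 9 was -0.20, against 0.00 over all genes measured. With TMM, Neat1 stood at 1.18 (0.961 to 1.45), Snhg1 at 1.15 (0.806 to 1.68), Snhg8 at 1.39 (0.613 to 3.53) and Snhg12 at 0.942 (0.573 to 1.59). Each of those 4 TMM intervals held 1.

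Before culture the same comparison concerns cells straight from the embryo. Again none of 9 members was called, against 0.0634% of 18934 genes, 0.0158% higher and 0.0475% lower. Rmrp was higher in the mutant library at 2.14 (1.77 to 2.59), with 557 counts against 141, and Rpph1 at 1.80 (1.64 to 1.98), with 2003 counts against 601. For Rn45s the fold was 1.121 (1.11 to 1.13), and 0.9997 with the library scaling of the background-subtracted counts. Without a known length, no background was taken from Rn45s itself. Those 3 were the members whose interval left 1, of 9, where 26.1% of all genes had such an interval. That share too depends on the counts of each gene. Malat1 had a fold of 1.01 (0.994 to 1.02), and by gene count totals 0.936, so its direction depends on the scaling. Neat1 stood at 0.932 (0.747 to 1.17), Gas5 at 0.945 (0.851 to 1.05), Snhg1 at 1.07 (0.886 to 1.29; 0.989 by gene count totals), Snhg8 at 0.690 (0.463 to 1.03) and Snhg12 at 1.23 (0.889 to 1.71).

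With TMM, the genotype folds of 4 members differed between the culture states beyond counting error, all in the same direction. The fold after culture divided by the fold before it was 0.305 for Rmrp (0.235 to 0.397), 0.353 for Rpph1 (0.313 to 0.398), 0.634 for Rn45s (0.625 to 0.643) and 0.860 for Malat1 (0.842 to 0.879). These intervals took the log ratio as normal with Poisson counts. Of 17910 genes with counts in all 4 libraries and at least 20 in 1, 22.0% had such a ratio with an interval off 1. Most of these genes had far fewer counts than Rn45s and Malat1, so that share is no like-for-like measure either. For Neat1, Gas5, Snhg1, Snhg8 and Snhg12 the interval held 1. With background subtracted, 3 members had an interval off 1. The genotype folds of Malat1 were then 0.916 after culture and 0.900 before it, so the direction of its difference depends on the setting.

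A list of other small structured RNAs was compared in the same way. Of 15 found, such as the small Cajal body RNA Scarna10 and the small nucleolar RNA Snord17, 7 could be measured before culture, and all 7 had a log2 fold above 0 with a median log2 fold of 0.98, against 0.04 over all genes, none of them called. Scarna6, Scarna13, Snora74a and Bc1 reached 20 counts only in the deeper mutant library, so the filter itself favoured folds above 1. The 7 of 7 and the median are thus a description only. The interval of Snora74a held 1 (1.14, 0.512 to 2.70), and of those under 20 counts Vaultrc5 (2 counts against 3) and Rnu12 (8 against 6) had folds below 1. Scarna10 stood at 2.05 (1.49 to 2.87), from 186 counts in the mutant against 49 in the wild type library. Snord17 stood at 2.04 (1.31 to 3.27), from 98 against 26. After culture 4 could be measured, with a median log2 fold of -0.56. The summed level of the list was 101 CPM in the mutant and 121 CPM in the wild type library after culture, against 71.6 and 36.7 CPM before it. In wild type cells Scarna10 and Snord17 were called higher after culture at 5.18 (3.54 to 7.62) and 6.27 (3.79 to 10.6). In mutant cells the folds were 1.70 (1.34 to 2.16) and 3.37 (2.56 to 4.45), of which that of Snord17 was called.

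Taking the genotypes as 1 pair each, an edgeR quasi-likelihood test of culture used all 4 libraries with genotype as a block. It asks for the average change over both genotypes, so a change in 1 genotype alone can pass. Of 18531 genes tested, 42.1% passed an adjusted p of 0.05 (Benjamini-Hochberg), 23.5% as higher. Among the folds of single libraries, the interval left 1 for 5 of 9 members in mutant cells, against 59.4% of genes. In wild type cells it left 1 for 6 of 9, against 61.2%. These shares also depend on the counts of each gene. In the edgeR test 4 of 9 members passed, all higher, and Terc was too low to test. Neat1 rose by 1.97 on the log2 scale (SE 0.201, edgeR adjusted p = 7.0e-21), Rpph1 by 1.76 (SE 0.177, adjusted p = 1.2e-21), Malat1 by 1.46 (SE 0.216, adjusted p = 2.7e-10) and Rmrp by 1.23 (SE 0.193, adjusted p = 2.7e-09), each higher in both genotypes. Rn45s had 0.20 (SE 0.229, edgeR adjusted p = 0.48), Gas5 0.19 (SE 0.175, adjusted p = 0.37), Snhg1 -0.18 (SE 0.229, adjusted p = 0.53), Snhg8 -0.15 (SE 0.502, adjusted p = 0.81) and Snhg12 0.36 (SE 0.351, adjusted p = 0.39). The test has 1 residual degree of freedom, which also takes in any genotype difference in the response. Its error for each gene is thus borrowed mainly from all genes. The small p-values do not measure the spread of that gene between the pairs. The edgeR SEs for Rpph1 and Rmrp should not be read as covering a genotype difference, since DESeq2 gave SEs of 0.715 and 0.797. With background subtracted, the edgeR adjusted p was 5.6e-06 for Neat1, 1.9e-06 for Malat1, 3.0e-04 for Rpph1 and 0.019 for Rmrp. DESeq2 on the same design gave Rpph1 an adjusted p of 0.03 and Rmrp one of 0.16, so that call depends on the tool, and without the mutant library after culture Rn45s also passed (edgeR adjusted p = 1.5e-05).

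**Figure D5:**
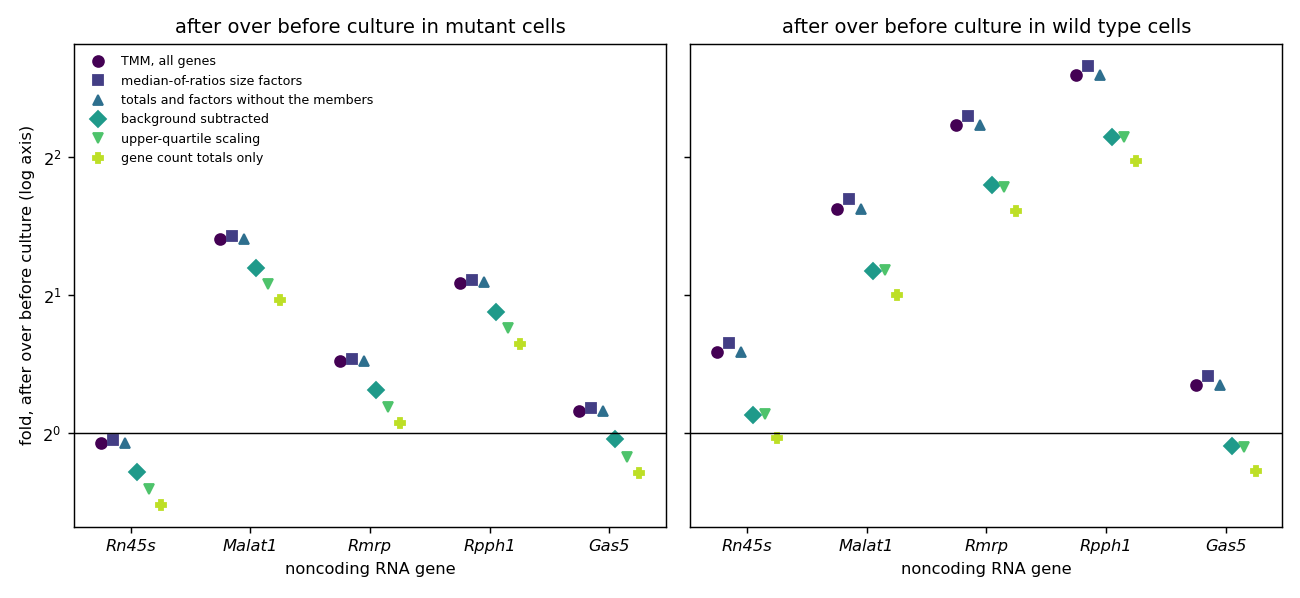
Culture folds of 5 noncoding RNAs in mutant cells and in wild type cells under 6 ways of scaling the libraries, on a log axis. Point values of Malat1, Rmrp and Rpph1 were above 1 under each, though the interval of Rmrp in mutant cells held 1 by gene count totals and by upper-quartile scaling, whereas Gas5 in both genotypes and Rn45s in wild type cells lay on either side of 1.

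In lists of genes that work with these RNAs, few members were called after culture, where 8.81% of genes in mutant cells and 13.9% in wild type cells were called in either direction. Of 14 paraspeckle protein genes and 17 nuclear speckle and splicing genes, none was called in either genotype. Paraspeckle genes had median log2 culture folds of 0.33 in mutant and 0.42 in wild type cells, against -0.09 and -0.05 over all genes. Hnrnpk, an RNA-binding protein, stood at 1.24 in mutant cells (1.18 to 1.30) and 1.49 in wild type cells (1.39 to 1.60), and Srrm2, a core protein of speckles, at 1.77 (1.71 to 1.84) and 1.88 (1.78 to 1.99). Sfpq, a core paraspeckle protein, stood at 1.005 (0.957 to 1.05) and 1.20 (1.12 to 1.29), and Son, a speckle scaffold, at 1.43 (1.37 to 1.49) and 1.65 (1.54 to 1.76). Of 29 genes of RNA polymerase I and ribosome assembly none was called, with Npm1, the nucleolar chaperone nucleophosmin, at 0.855 (0.809 to 0.904) and 0.845 (0.778 to 0.917). Of 28 RNA polymerase III genes, Polr3g, a subunit of the polymerase, was called lower in mutant cells at 0.309 (0.199 to 0.460) and stood at 0.549 in wild type cells (0.296 to 0.9504). Gtf3c1, a subunit of transcription factor IIIC, stood at 1.58 (1.47 to 1.71) and 1.97 (1.76 to 2.20), and Ssb, the La protein, at 1.18 (1.09 to 1.27) and 1.38 (1.23 to 1.56). None of 8 nonsense-mediated decay genes was called, with the kinase Smg1 at 1.33 (1.25 to 1.41) in mutant cells and 1.19 (1.08 to 1.31) in wild type cells. In the test over both genotypes, 4 of 14 paraspeckle, 7 of 17 speckle, 8 of 29 polymerase I and 8 of 28 polymerase III genes passed as higher, against the 23.5% of all genes.

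Other long noncoding RNAs, whose place in the cell was not measured, had calls in both directions. Of all genes, 8.81% in mutant and 13.9% in wild type cells were called in either direction. Of 18 such genes found, 3 were called lower and 1 higher after culture in mutant cells, and 2 lower and 1 higher of 16 measured in wild type cells. Meg3, an imprinted RNA, had 40.4 CPM in the mutant and 29.1 CPM in the wild type library after culture, against 220 and 120 CPM before it, and was called lower at folds of 0.183 and 0.243. Rian, from the same imprinted cluster, was called lower at 0.158 and 0.120. Mirg, of that cluster too, was called lower in mutant cells, with 2 counts against 48, and Peg13 was called higher at 2.63 (2.34 to 2.96) and 3.05 (2.59 to 3.58); both were named after their values were seen. Kcnq1ot1 stood at 1.503 in mutant cells (1.41 to 1.60) and 0.840 in wild type cells (0.747 to 0.942). H19, another imprinted RNA, stood at 0.833 in mutant cells (0.814 to 0.853) and 1.11 in wild type cells (1.08 to 1.15).

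The genes most like a member were those with the smallest distance between centred log2 levels over the 4 libraries, among 3896 genes with at least 100 counts in each. For Rn45s they were Birc5 (distance 0.0269), an inhibitor of apoptosis that works in cell division, Extl3 (0.0598) and Ncaph (0.0739), a condensin subunit. For Malat1 they were Sh3bp5 (0.0504), Nod1 (0.0560) and Col4a1 (0.0644), a basement membrane collagen with 5436 and 6312 CPM in the mutant and wild type libraries after culture, against 1990 and 2099 CPM before it. For Neat1 they were Reep1 (0.138), Plxnc1 (0.145) and Cyyr1 (0.167). For Gas5 they were Esyt2 (0.0581), Hnrpll (0.0652) and Dicer1 (0.0770), the nuclease that makes microRNAs. The likeness rests on 4 libraries and is a description only.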

How the data were processed

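The 4 libraries, 1 per genotype and culture state, were prepared from total RNA with a stranded kit and sequenced as paired reads of 75 nt, according to the labels' protocols. The authors deposited raw counts of read pairs per gene symbol. The submitters' processing notes name bcl2fastq, STAR, HTSeq 0.11.2 and mm10, and the table names state that sambamba removed duplicates. No annotation or strand setting is given in the sources used here, so reads of overlapping antisense genes cannot be told apart. The 5 summary classes that name no gene held 89.5% to 92.1% of pairs and were left out.

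Counts were scaled with TMM (edgeR 4.0.16, R 4.3.3). Levels have exact Poisson intervals and folds Clopper-Pearson intervals at 95% (scipy 1.17.1). They cover counting error only, because amplified reads that carry no molecular identifier do not each stand for a molecule. List medians used a prior count of 2, and a count of 0 was set against 3 counts. Culture was tested over both genotypes with edgeR's quasi-likelihood test after filterByExpr, and with DESeq2 1.42.0 as an alternative; genotype pairs the libraries because each sort was split. Lengths and positions came from GENCODE vM21 (GRCm38), found for 22872 symbols (98.0%), and promoters from RefSeq. The procedures were tested on simulated counts. For the edgeR test these had a common dispersion for all genes and no genotype difference in the response to culture, so they do not cover such a difference. The members and lists were chosen with earlier results of these data known. Named were all members, the 2 genes with most counts and called genes, up to 4 a list, and the 3 genes most like Rn45s, Malat1, Neat1 and Gas5. Some genes that this rule names are not reported here.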

Additional observations from a re-analysis of the deposited data

Results flagged for a closer look

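Effects that pointed in opposite directions in the groups compared were found for Rmrp, Rpph1 and Rn45s. The mutant-to-wild type fold of Rmrp was 0.653 after culture and 2.14 before it, that of Rpph1 0.636 and 1.80, and that of Rn45s 0.711 and 1.121, all with intervals off 1. The after-to-before fold of Rn45s was 0.948 in mutant cells and 1.496 in wild type cells. With 1 library in each group these differences were not tested against replicates. With the library scaling of the background-subtracted counts the Rn45s fold before culture was 0.9997, though no background was taken from Rn45s itself. By gene count totals its wild type culture fold was 0.971.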

How the results depend on the processing

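With 1 library per group no genotype difference can be checked against replicates, and depth limits Snhg8, Snhg12 and Terc. Against TMM, gene count totals alone lowered all log2 culture folds by 0.45 in mutant and 0.62 in wild type cells, and upper-quartile scaling by 0.33 and 0.45. Background subtraction changed the library scaling by -0.21 and -0.45. It also lowered each count according to the gene's length, except where no length was known, as for Rn45s. Its effect differed between genes (Neat1 in mutant cells had 15.8 against 4.51, and a log2 change of 4.63 against 1.97 in the edgeR test). After culture, called members numbered 1 in mutant cells and 2 in wild type cells by gene count totals. With TMM they numbered 2 and 4, where 8.81% and 13.9% of all genes were called. Mutant over wild type before culture, 1 member was called with background subtracted, Neat1, whose wild type count then became 0, and 2 (Rmrp and Rpph1) with intervals beyond 1.5-fold. With the shorter Neat1 length, an alternative added after seeing the data, 0 were called. The other settings kept these counts within 1.5 times. The share of all genes called is not given here for these alternatives. A change in the members thus cannot be told apart from a change in all genes. Without Rn45s in the total, the share of Malat1 was 1.28% and 1.41% of gene counts in the mutant and wild type libraries after culture, against 0.663% and 0.707% before it, where it was 1.25%, 1.38%, 0.646% and 0.690% of all gene counts. Of 37 member folds compared, 18 left their interval by gene count totals, 15 with upper-quartile scaling, 6 with median-of-ratios factors and 0 without the members, and 16 of 34 with background subtracted; no called fold changed direction. In the test over both genotypes 4 members passed; with no replicate block it was 4, with DESeq2 3, and leaving out 1 library each, without the block, 4 to 5. That test called 7801 genes, against 4066 with DESeq2 and 4927 without the wild type library before culture. There a lone library of a state is assumed to vary like the other state. Totals without mitochondrial genes were not run, since the tables hold 0 such symbols.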
